A study of Mus musculus with 4 samples.

Results

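The 9 genes described here belong to the MHC class II antigen presentation pathway: Cd74, H2-Aa, H2-Ab1, H2-Eb1, H2-DMa, H2-DMb1, H2-DMb2, H2-Oa and Ciita. They were taken by name from the 27998 genes of the deposited count table, and all 9 had UMIs (counted RNA molecules) in the libraries. MHC class II molecules are pairs of an α and a β chain that carry peptides from ingested proteins to the surface of antigen-presenting cells, where CD4+ T cells read them. H2-Aa and H2-Ab1 encode the chains of the mouse molecule I-A. H2-Eb1 encodes the β chain of I-E, whose α chain C57BL/6 mice do not make. Cd74, the invariant chain, blocks the peptide groove until the molecule reaches the endosome. There H2-DM, made from H2-DMa with H2-DMb1 or H2-DMb2, catalyses the exchange of its remnant for peptide, and H2-DO, made from H2-Oa and H2-Ob, restrains H2-DM. Ciita is the coactivator that switches on the class II genes, and outside dendritic cells (DCs) and B cells its best known inducer is interferon-γ.

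The cells came from the spinal cord (SC) of mice with experimental autoimmune encephalomyelitis (EAE), a T cell-driven inflammation of the central nervous system that was induced in every mouse with the myelin peptide MOG35-55 in complete Freund adjuvant and pertussis toxin. In the first pair of libraries, C57Bl/6JOlaHsd mice aged 15 weeks received either an isotype control antibody (mIgG1) or a blocking antibody against angiopoietin-2 (Ang2 Ab) for 2 weeks from induction, and cells were taken at 14 days post immunization (dpi). In the second pair, on C57Bl/6JCrl at 12 to 14 weeks, EC-Ang2 mice carried both VE-cadherin-tTA and Tet-OS-Ang2, which together overexpress Ang2 in endothelial cells (ECs), while the control mice (Ctrl) were single-transgenic littermates. Doxycycline had kept the transgene off until birth, and cells were taken at 12 dpi. The toxin dose also differed, 400 ng in the antibody pair and 200 ng in the transgenic pair. Ratios between conditions were therefore taken only within each pair. Ranges, ranks, means and SDs over the 4 libraries mix both pairs, with their unlike substrains, ages, days and toxin doses. Each condition was 1 library, so no replicate stands behind any value, no test across animals could be made, and a difference between the libraries of a pair cannot be told apart from a difference between single preparations. How many mice a library held is not given in the sources used here.

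DAPI- CD45+ leukocytes and DAPI- CD31+ ECs had been sorted and loaded in equal numbers, so shares of cell types were set in part by the sort. The 4 libraries held 52084739 to 66631583 UMIs, and 5427 to 7498 barcodes per library reached 2000 UMIs. Any 2 libraries shared between 51 and 77 of these barcodes. Clustering without the 9 genes gave 30 clusters, of which 23 were named from markers. The naming rule was set after the clusters had been seen. The types used were 416 Fscn1-low DC-like cells (73 to 137 per library), 185 Fscn1-high DC-like cells (21 to 75), 3090 monocyte-like cells, 4306 macrophage-like cells, 1179 microglia-like cells (47 to 635) and 11800 EC-like cells. Flt3, the growth factor receptor of DCs, stood at 67.3 to 105 counts-per-million (CPM, the UMIs of a gene scaled to all UMIs of the same cells) in the Fscn1-low and at 96.7 to 180 in the Fscn1-high cells, but at no more than 5.03 in monocyte-, macrophage- and microglia-like cells. Fscn1, the actin bundler of mature DCs, separated both DC types, at 17.9 to 60.4 against 3806 to 4841 CPM. Tmem119 and P2ry12, which define microglia, stood at 334 to 1020 and 182 to 649 in microglia-like cells and at no more than 49.1 and 28.8 in macrophage-like cells. No B cell cluster was found.

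The promoters of class II genes carry a conserved module, in which RFX binds the X box, NF-Y binds the Y box, and Ciita docks on both. The RefSeq promoter set (250 bases before to 50 after each start, build GRCm38.p6) held 6 of the 9 members, and H2-Ab1, Cd74 and Ciita were not matched. The windows below run from base -120 to base -21 before the start and are shown because each holds a Y box letter match near the start. H2-DMb1 holds such a match too, but its window lies in an annotated exon and is not shown. Capitals mark ATTGG, the core of the Y box, and matches to GCAACAG, the core of the X box, with at most 1 mismatch, both read on the strand of the gene.
H2-Aa: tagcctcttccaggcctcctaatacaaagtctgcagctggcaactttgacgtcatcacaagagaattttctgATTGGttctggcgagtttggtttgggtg
H2-Eb1: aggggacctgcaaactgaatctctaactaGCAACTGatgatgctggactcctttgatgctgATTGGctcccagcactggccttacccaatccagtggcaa
H2-DMb2: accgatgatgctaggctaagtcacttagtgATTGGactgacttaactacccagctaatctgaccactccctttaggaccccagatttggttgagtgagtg
H2-Oa: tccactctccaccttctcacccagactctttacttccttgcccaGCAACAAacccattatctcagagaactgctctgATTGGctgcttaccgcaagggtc
The windows lie at chr17:34287844-34287943 on the minus strand for H2-Aa, and on the plus strand at chr17:34305747-34305846 for H2-Eb1, chr17:34145129-34145228 for H2-DMb2 and chr17:34092259-34092358 for H2-Oa. The H2-Oa window ends inside the first exon that GENCODE annotates for this gene, and the other windows overlap no annotated exon of their gene. ATTGG began at -48 in H2-Aa, at -59 in H2-Eb1, at -61 in H2-DMb1, at -90 in H2-DMb2 and at -43 in H2-Oa. Further from the start, at -198, it began in 1 of the 2 promoters of H2-DMa. ATTGG occurred on the gene strand of 22.1% of all 32851 promoters and on either strand of 37.4%. The X core began 25 to 45 bases before a Y box in H2-Eb1 (-91 and -59), H2-Oa (-76 and -43) and H2-Ob (-87 and -57), against 0.822% of all promoters. The X core alone was common, on the gene strand of 38.1% and on either strand of 60.9%. Neither of the 2 promoters of H2-DMa held the combination, and no match says only that these letters are not in the window.

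Class II transcripts were highest in Fscn1-low DC-like cells, in all 4 libraries and for all 9 genes. The class II sum (Cd74, H2-Aa, H2-Ab1 and H2-Eb1 together) made up 83258 CPM in mIgG1, 75080.1 in Ang2 Ab, then 66400.1 in Ctrl and 68879.6 in EC-Ang2. These levels are not scaled for transcript length, so each gene is compared across cells and not with other genes. The level in every other type and library was lower. Fscn1-high DC-like cells held 20767, 24937, 39861 and 25868 CPM in the same order, monocyte-like cells 37151, 23929.7, 21832 and 12715, and macrophage-like cells 26470, 23139.8, 33435 and 17613. The ranges of these 3 types over the libraries overlapped one another. Microglia-like cells ranged from 2762 to 18788 CPM and overlapped plasmacytoid DC-like cells, at 7857 to 18869. EC-like cells had 217 to 834, T cell-like cells 331 to 1760 and granulocyte-like cells 688 to 5023, and these 3 ranges overlapped too. Barcodes of 1 to 100 UMIs, which hold free RNA and not whole cells, had 8963 to 12991 CPM.

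**Figure D1:**
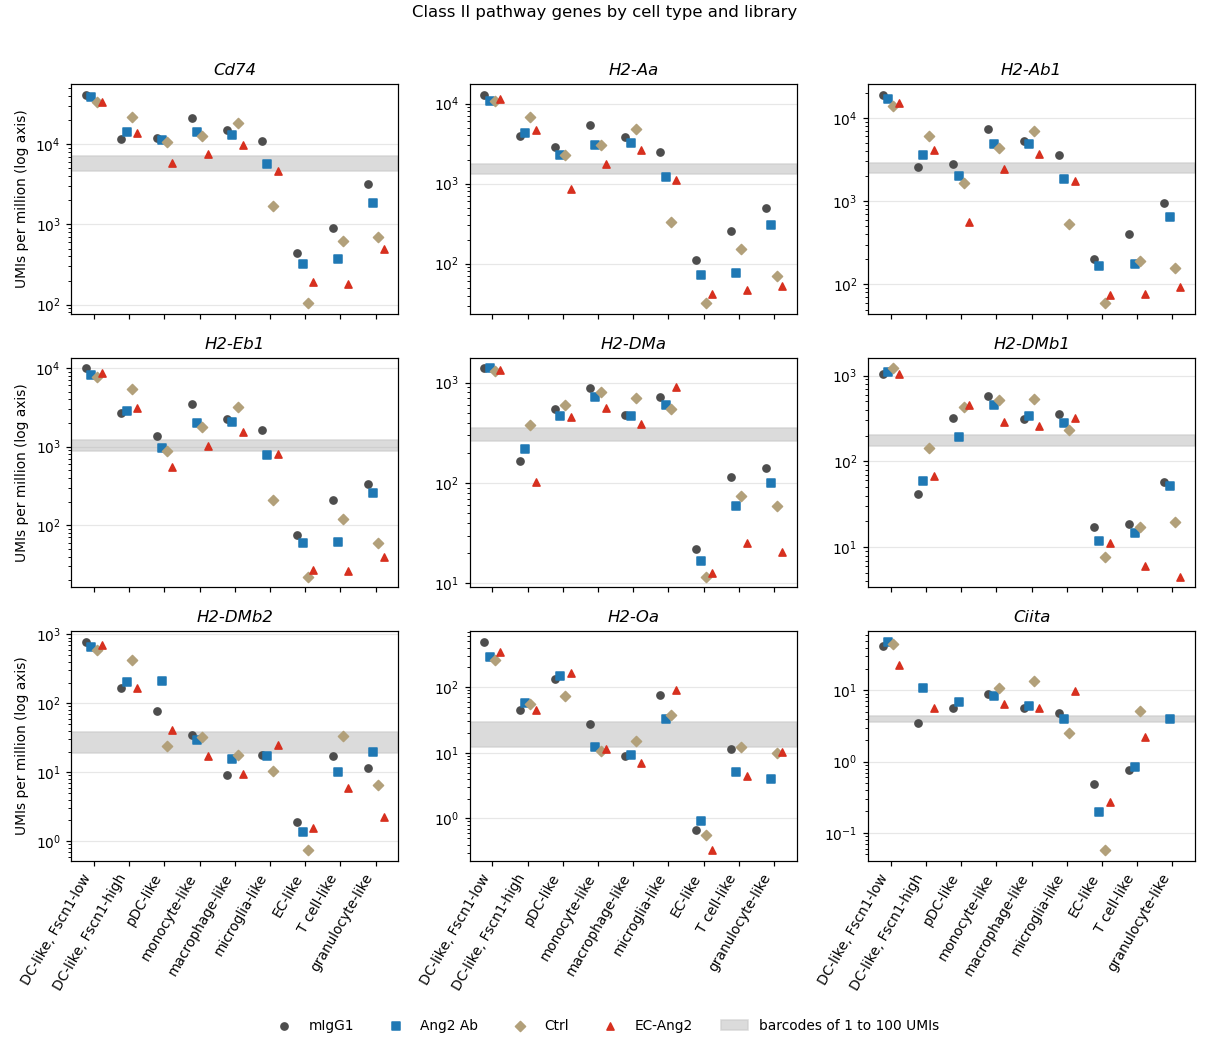
Level of each of the 9 genes in CPM (log axis, a library at 0 is not drawn) by cell type, with 1 point per library; the grey band spans the 4 libraries' barcodes of 1 to 100 UMIs. All 9 genes peak in Fscn1-low DC-like cells, and EC-like cells lie far below the grey band for every gene.

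Among the chain genes, H2-Ab1 stood at 18914, 16789, 13803 and 14982 CPM in the Fscn1-low DC-like cells of mIgG1, Ang2 Ab, Ctrl and EC-Ang2, a mean of 16122 ± 2229.8 (SD, n = 4 libraries). Fscn1-low DC-like cells came first of 9 types for H2-Aa, H2-Eb1 and Cd74 too, and microglia-like cells came behind monocyte- and macrophage-like cells for all 4 genes in each library. The genes of peptide loading were ordered otherwise. H2-DMa, the α chain of H2-DM, varied little over the libraries in Fscn1-low DC-like cells, at 1358 ± 37.5 CPM (SD, n = 4 libraries). Its level in Fscn1-high DC-like cells, 101 to 375, was below that of monocyte-like (554 to 879), macrophage-like (386 to 703) and microglia-like cells (545 to 896). H2-DMb1, the β chain, was likewise lowest there among these types, with 42.1 to 145 CPM in Fscn1-high against 1038 to 1217 in Fscn1-low DC-like cells. In Fscn1-high cells H2-DMa lay at 0.384 to 1.06 and H2-DMb1 at 0.228 to 0.713 times the free RNA level, while Cd74 was at 1.62 to 4.53 times its own. With the upper bound of the free RNA share subtracted, 93.4 to 329 CPM of H2-DMa and 33.6 to 119 of H2-DMb1 were left there.

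Read as a share within the pathway, Fscn1-high DC-like cells held little H2-DMa RNA beside that of Cd74. They had 0.725 to 1.73 H2-DMa UMIs per 100 Cd74 UMIs in the 4 libraries, against 3.36 to 3.96 in Fscn1-low DC-like, 3.11 to 3.95 in macrophage-like and 4.19 to 7.33 in monocyte-like cells. The range of the Fscn1-high cells overlapped none of these. Microglia-like cells stood at the other end with 6.47 to 32.2. Within I-A, Fscn1-high cells had 115 to 156 H2-Aa UMIs per 100 H2-Ab1 UMIs, against 64.3 to 78.01 in Fscn1-low cells and 66.3 to 72.9 in macrophage-like cells. Plasmacytoid DC-like cells had 104 to 156, which overlaps the range of the Fscn1-high cells. Intervals and ratios of UMIs cover counting error only.

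H2-DMb2, a copy of the β chain gene that lies next to H2-DMb1, was higher in both DC types than in the other myeloid types. In Fscn1-low DC-like cells it stood at 782 CPM in mIgG1, 662 in Ang2 Ab, then 590.4 in Ctrl and 701 in EC-Ang2, and in Fscn1-high cells at 165, 204, 423 and 169. Monocyte-, macrophage- and microglia-like cells had between 9.02 and 35.1. Per 100 H2-DMb1 UMIs there were 48.5 to 75.3 H2-DMb2 UMIs in Fscn1-low DC-like cells and 292 to 341 in Fscn1-high cells, where 2 libraries had enough UMIs. The same ratio was 5.91 to 6.49 in monocyte-like, 2.86 to 4.66 in macrophage-like and 4.605 to 7.63 in microglia-like cells. The longest coding transcripts of both genes are 71.8% identical in sequence and 60.4% over their last 400 bases, where 3′ reads fall. How the counting treated reads that match both copies was not tested.

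H2-Oa, the α chain of the H2-DM inhibitor H2-DO, was above the free RNA level in both DC types and in microglia-like cells, and below it in monocyte- and macrophage-like cells. Fscn1-low DC-like cells had 491, 284, 257 and 344 CPM, and microglia-like cells had 75.3, 32.4, 37.7 and 90.9. Monocyte-like cells (10.7 to 27.7) and macrophage-like cells (7.07 to 14.9) lay at 0.534 to 0.936 and 0.305 to 0.829 times the free RNA level of their libraries. A level below that of free RNA does not mean that all of it is free RNA. With the upper bound of the free RNA share subtracted, 9.61 to 26.4 CPM were left in monocyte-like and 6.65 to 14.0 in macrophage-like cells. Per 100 H2-DMa UMIs there were 19.6 to 35.3 H2-Oa UMIs in Fscn1-low DC-like, 5.38 to 10.5 in microglia-like, 1.83 to 2.12 in macrophage-like and 1.33 to 3.15 in monocyte-like cells. H2-Ob, which encodes the partner chain, was ordered alike, with 65.6 to 88.1 CPM in Fscn1-low DC-like cells, 6.06 to 11.5 in microglia-like cells and at most 2.99 in monocyte- and macrophage-like cells.

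Ciita was counted rarely. Fscn1-low DC-like cells gave 36, 45, 35 and 13 UMIs of Ciita in mIgG1, Ang2 Ab, Ctrl and EC-Ang2, which is 41.7, 48.3, 44.8 and 22.4 CPM. The EC-Ang2 library was the lowest, with an exact Poisson 95% interval of 11.9 to 38.4 that overlapped the Ctrl interval of 31.2 to 62.3. Monocyte-like cells had 6.42 to 10.7 and macrophage-like cells 5.72 to 13.6. After each cell was thinned to 2000 UMIs, 4.11 to 8.62% of Fscn1-low DC-like cells held a Ciita UMI, against at most 0.0720% of EC-like cells. In 11800 EC-like cells there were 17 Ciita UMIs in all.

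The Fscn1-low DC-like cluster was not uniform in H2-DMb2. Cells with a UMI of Xcr1 or Clec9a, which mark the cross-presenting type of conventional DCs (89 cells), had 432 H2-DMb2 CPM. Cells with a UMI of Cd209a, a lectin of monocyte-derived and type 2 DCs (64 cells), had 431, and the 260 cells with neither had 867 (exact Poisson interval 825 to 912). In each of the 4 libraries the cells with neither marker had the highest H2-DMb2 level of the 3 groups, between 672 and 986. H2-DMb1 was lower over the pooled cells with neither marker, at 1014 against 1223 and 1201 CPM, but not in EC-Ang2, where the Cd209a cells had 833 and the cells with neither 1028. The class II sum was 69367, 63576 and 79223.5. A cell without a UMI of these markers may still express them, and 3 cells had both.

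Single cells of one type spanned a wide range. Thinned to 2000 UMIs, the median Fscn1-low DC-like cell held 180.5, 150, 131 and 140 class II UMIs in mIgG1, Ang2 Ab, Ctrl and EC-Ang2, and 97.3 to 100% of these cells held at least 10. Fscn1-high DC-like cells had medians of 14, 16, 65 and 16.5. In mIgG1, their cells at the 10th and 90th percentiles held 5.6 and 101 class II UMIs, so the type mixed cells with few and with many. Monocyte-like cells ran from a median of 61 in mIgG1 to 5 in EC-Ang2, where 19.1% of the cells had none. In EC-like cells the median was 0 or 1, and 21.9 to 66.3% of the cells had none, against 16.8 to 61.1% of T cell-like cells, which do not make class II in mice, at the same thinned depth.

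**Figure D2:**
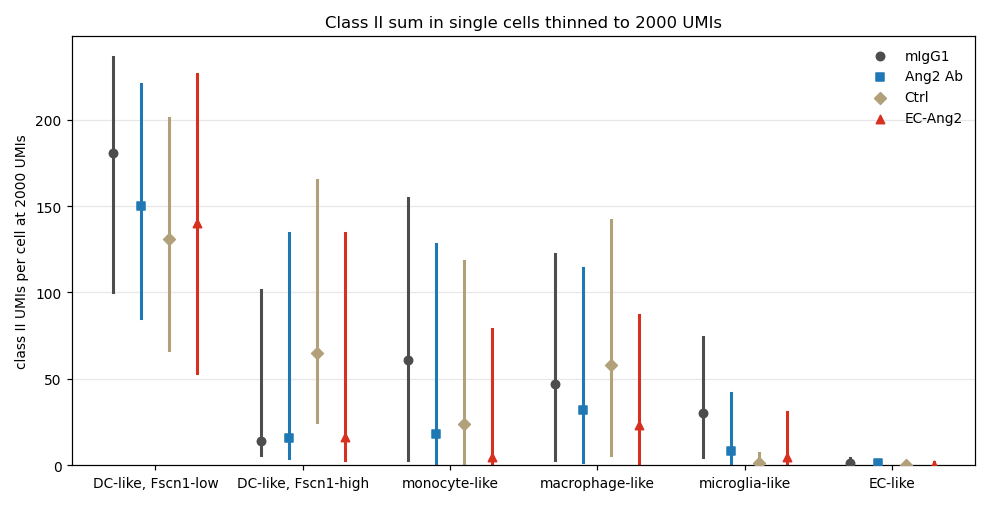
Class II UMIs (Cd74, H2-Aa, H2-Ab1 and H2-Eb1) per cell after each cell was thinned to 2000 UMIs; points are medians and bars run from the 10th to the 90th percentile of the cells of a type in 1 library. Fscn1-low DC-like medians lie between 131 and 180.5, and EC-like medians at 0 or 1.

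The antibody pair and the transgenic pair were then compared type by type, to see in which cells blockade or overexpression of Ang2 went with another class II level. A gene counted as past the fold where the libraries of a pair differed by at least 1.5-fold and held at least 50 of its UMIs together. Tested means here that a gene had those UMIs, since no statistical test was made. In Fscn1-low DC-like cells the members were nearly level. In the antibody pair 1 of 9 tested members was past the fold, against 13.3% of all 3614 genes tested, and in the transgenic pair 0 of 8, against 11.1% of 3101. The log2 ratio of the class II sum was -0.15 for Ang2 Ab over mIgG1 and 0.05 for EC-Ang2 over Ctrl. The exception was H2-Oa, at 284 CPM in Ang2 Ab and 491 in mIgG1, a log2 ratio of -0.79 with an exact conditional binomial 95% interval of -1.02 to -0.56. In the other pair it was 344 in EC-Ang2 and 257 in Ctrl, a ratio of 0.42.

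In Fscn1-high DC-like cells no member was past the fold in the antibody pair (0 of 6 tested, 13.1% of all genes). In the transgenic pair 4 of 6 were lower in EC-Ang2 (18.8% of all genes were past the fold in either direction). They were Cd74 (-0.63), H2-Eb1 (-0.80), H2-DMa (-1.89, interval -2.73 to -1.11) and H2-DMb2 (-1.32). This comparison rests on 21 Ctrl and 32 EC-Ang2 cells, and on 62 and 18 UMIs for H2-DMa, and its calls were not all kept. Cd74 was not past the fold when the members could serve as clustering features (-0.53), from 4000 UMIs (-0.56) or with doublets kept (-0.49), nor was H2-Eb1 with doublets kept (-0.53). The monocyte marker list summed to 1432 CPM in these Ctrl cells and to 462 in EC-Ang2, and up to 12.9% of the UMIs of the Ctrl cells could be free RNA, against 2.99% in EC-Ang2. The part of either in the result was not tested.

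Monocyte-like cells were lower in class II in Ang2 Ab than in mIgG1 and in EC-Ang2 than in Ctrl. Cd74 stood at 20996 CPM in mIgG1 and 14046 in Ang2 Ab, and at 12613 in Ctrl and 7555 in EC-Ang2. H2-Ab1 ran alike, at 7276 and 4855, then 4362 and 2402. In the antibody pair, H2-Aa (-0.83), H2-Eb1 (-0.80) and H2-Oa (-1.19) were past the fold and lower, 3 of 9 members, against 11.6% of all genes, while Cd74 and H2-Ab1 were just short of the fold at -0.58 each. In the transgenic pair 7 of 9 were past the fold, all lower, against 9.73% of all genes. H2-DMa (-0.54) stayed short of the fold there, and H2-Oa (0.08) was level. The log2 ratio of the class II sum was -0.63 in the antibody pair and -0.78 in the transgenic pair. The first did not reach 1.5-fold without alignment of the libraries (-0.54) or with equal weight for each cluster (-0.49), and the second was -1.50 when the members could serve as clustering features.

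The 2 monocyte-like clusters held unlike shares of the cells. The one led by Plac8 and Ccr2, the higher in class II, made up 74.1% of the monocyte-like cells in mIgG1, 53.7% in Ang2 Ab, then 49.2% in Ctrl and 55.8% in EC-Ang2. Within both clusters class II was lower in Ang2 Ab and in EC-Ang2 than in their controls, the cluster led by Plac8 and Ms4a4c with the larger ratios. There the class II sum went from 19522 CPM in mIgG1 to 11177 in Ang2 Ab, and from 14351 in Ctrl to 4905 in EC-Ang2 (log2 ratio -1.55). In the cluster led by Plac8 and Ccr2 the ratios were -0.36 and -0.72. The macrophage marker list moved with class II in the antibody pair, at 51549 CPM in mIgG1 and 30527 in Ang2 Ab, but not in the transgenic pair, at 25464 in Ctrl and 33084 in EC-Ang2. The monocyte list was higher in Ang2 Ab and in EC-Ang2 than in their controls, at 9984 in mIgG1 and 13378 in Ang2 Ab, then 17651 in Ctrl and 22979 in EC-Ang2. Their part in the result was not tested.

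In macrophage-like cells the members were near level in the antibody pair and lower in EC-Ang2 in the transgenic pair, and the difference between the pairs was not tested. In the antibody pair the class II sum was 26470 CPM in mIgG1 and 23139.8 in Ang2 Ab, a log2 ratio of -0.19, and the single member past the fold was H2-DMb2, higher in Ang2 Ab (15.5 against 9.02, both under the free RNA level), which is 1 of 9 against 9.1% of all genes. With the upper bound of the free RNA share subtracted, H2-DMb2 kept 7.72 to 16.8 CPM in macrophage-like cells over the 4 libraries. In the transgenic pair all 9 members were past the fold and lower in EC-Ang2, against 15.8% of the 8297 genes tested. Cd74 had 18393 CPM in Ctrl and 9763 in EC-Ang2, H2-Aa 4810.1 and 2666, and H2-Eb1 3206 and 1514. H2-DMb1 (-1.05), H2-Oa (-1.07) and Ciita (-1.25, from 43 and 56 UMIs) were lower by about as much. The log2 ratios of the 9 members lay between -1.25 and -0.85 with a median of -0.94, and the median of all genes was -0.01. Markers of other cells differed beside them. The mature DC list summed to 740.1 CPM in Ctrl and 361 in EC-Ang2, with Ccr7 at 46.2 and 4.10 and Fscn1 at 5.70 and 1.54, the conventional DC list to 819.8 and 635, and the monocyte list to 7211 and 9187. Their part in the result was not tested.

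The clusters behind the macrophage-like cells were not shared alike. The cluster led by Fabp5 and Gpnmb, the lowest of the 3 clusters in class II in mIgG1, Ang2 Ab and EC-Ang2, made up 41.9, 38.1 and 35.0% of the macrophage-like cells there but 5.44% in Ctrl (19 cells). Within each cluster the class II sum was lower in EC-Ang2. In the cluster led by Gm15056 and Mmp12 it was 27889.7 CPM in Ctrl and 19742 in EC-Ang2 (log2 ratio -0.50). In the cluster led by Ms4a7 and Apoe it was 45213 and 17333 (-1.38), and in the Fabp5 cluster 29134 and 15332 (-0.93). The ratio in the Mmp12 cluster did not reach 1.5-fold.

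In microglia-like cells the members were lower in Ang2 Ab than in mIgG1 and higher in EC-Ang2 than in Ctrl, and the difference between the pairs was not tested. In the antibody pair Cd74 stood at 11068 CPM in mIgG1 and 5659 in Ang2 Ab, and H2-Eb1 at 1618 and 777. In the transgenic pair Cd74 was at 1689.9 in Ctrl and 4629 in EC-Ang2, and H2-Eb1 at 210.3 and 813. The Ctrl library was the lowest of the 4 and the mIgG1 library the highest for all 4 genes of the class II sum. Past the fold and lower in Ang2 Ab were 5 of 8 members (Cd74, H2-Aa, H2-Ab1, H2-Eb1 and H2-Oa), against 10.1% of all genes. Past the fold and higher in EC-Ang2 were 7 of 8, all but H2-DMb1 (0.49). Against that stood a background of 34.6% of 6828 genes, of which 501 were higher and 1861 lower in EC-Ang2, with a median of all genes of -0.18. The log2 ratio of the class II sum was -0.98 (interval -1.004 to -0.962) and 1.59 (1.53 to 1.64).

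In these cells H2-DMa and H2-DMb1 differed less than Cd74 and the chain genes. H2-DMb2 was at -0.04 in the antibody pair. In the transgenic pair, from 56 UMIs, it was at 1.22 (interval 0.06 to 2.22), which overlapped Cd74. H2-DMa was at 716 CPM in mIgG1, 603 in Ang2 Ab, then 545 in Ctrl and 896 in EC-Ang2, ratios of -0.25 and 0.72, and H2-DMb1 at 353, 283, 229.6 and 322. The intervals of H2-DMa (-0.34 to -0.16 and 0.56 to 0.88) lay apart from those of Cd74 (-0.99 to -0.94 and 1.38 to 1.53) in both pairs. H2-Oa was 75.3 in mIgG1 and 32.4 in Ang2 Ab, then 37.7 in Ctrl and 90.9 in EC-Ang2. Its ratio of -1.22 (interval -1.58 to -0.86) lay apart from that of H2-DMa in the antibody pair. In the transgenic pair its ratio of 1.27 (0.71 to 1.79) overlapped that of H2-DMa. H2-Ob, which encodes the partner chain of H2-Oa, lay the other way in that pair, at 11.5 in Ctrl and 7.37 in EC-Ang2 (-0.64).

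Other transcripts moved with class II in these cells. The macrophage marker list summed to 34427 CPM in mIgG1, 18500 in Ang2 Ab, then 7049 in Ctrl and 10303 in EC-Ang2, the same order as for class II in the first pair and in the second. The microglia list was highest in Ctrl, at 14443 against 6139 to 8177. In 34.6, 35.7, 9.76 and 29.8% of the cells at least 2 monocyte genes had a UMI. Without those cells, a choice made after the data were seen that removed unlike shares of the libraries, the log2 ratios were -1.28 and 2.18. The part of the monocyte and macrophage transcripts in the result was not tested. EC-Ang2 held 47 microglia-like cells, and the value depended on the clustering and filters. The ratio of 1.59 became 0.80 when the libraries were clustered without alignment, 0.95 with cycling cells kept and 1.14 with doublets kept. With cycling cells kept H2-DMb2 (0.15) and H2-Oa (0.26) were not past the fold, and H2-DMa was not past it without alignment (0.57), as a mean over cells (0.50) or with cycling cells kept (0.33).

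**Figure D3:**
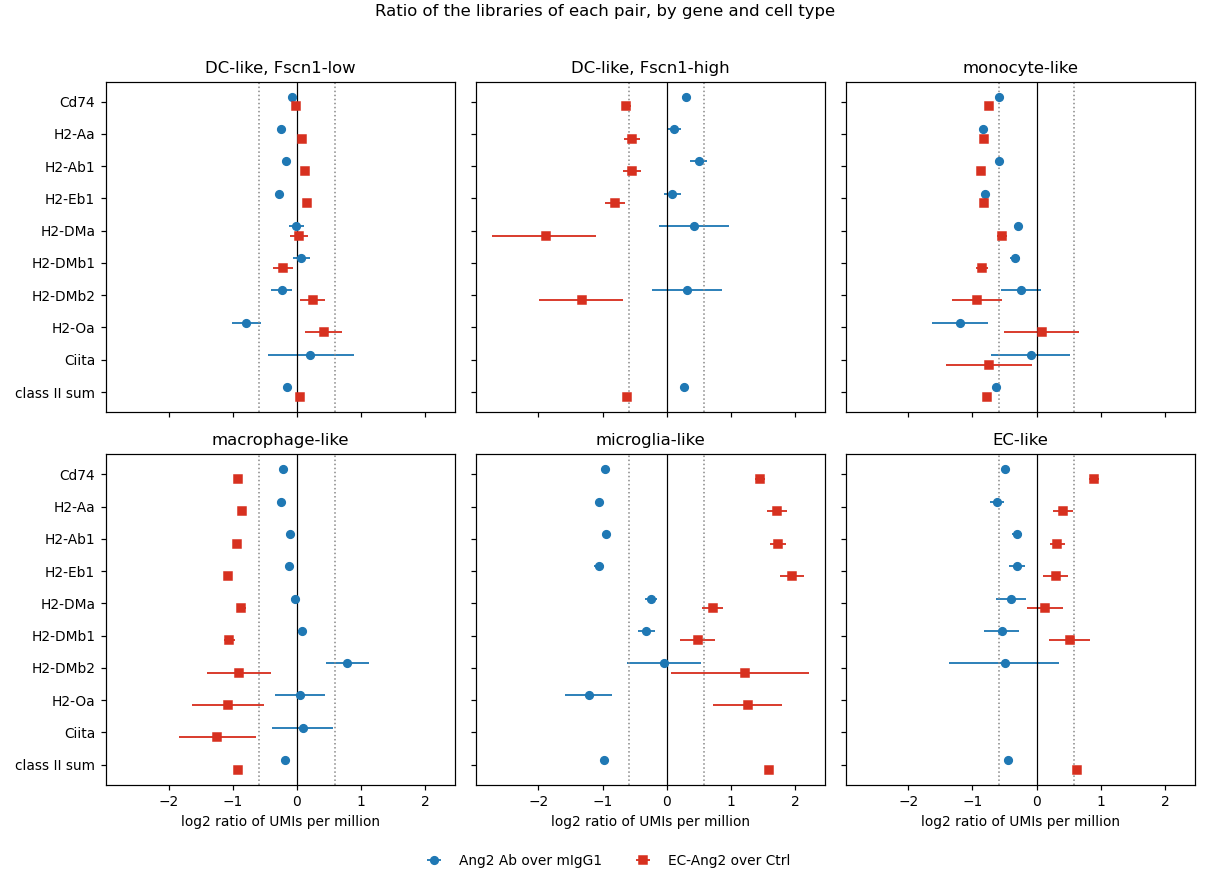
Log2 ratio of CPM within each pair for the 9 genes and the class II sum, by cell type; bars are exact 95% counting intervals, dotted lines mark 1.5-fold, and genes under 50 UMIs in a pair are left out. Macrophage-like cells lie left of zero in the transgenic pair for all 9 genes, and microglia-like cells lie on opposite sides in the 2 pairs.

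EC-like cells gave few class II UMIs. Cd74 had 447, 318, 104 and 193 CPM, H2-Ab1 203, 164, 59.3 and 74.2, and H2-DMa 22.1, 16.7, 11.6 and 12.7. This is 0.0217 to 0.0628 times the free RNA level for Cd74, and up to 3.38 to 6.74% of the UMIs of EC-like cells could be free RNA. In the antibody pair 1 of 7 members was past the fold (H2-Aa, -0.62), against 6.19% of all genes, and in the transgenic pair 1 of 6 (Cd74, 0.89), against 15.8%. Free RNA was followed with 6 genes that leukocytes express and ECs do not (Lyz2, Tyrobp, Fcer1g, Cd52, Laptm5 and Coro1a, called immune-only). If all class II RNA in ECs were free RNA, class II and immune-only UMIs would keep the ratio of the free RNA. In EC-like cells the immune-only sum was 977 CPM in mIgG1 and 679 in Ang2 Ab, then 297 in Ctrl and 359 in EC-Ang2. It thus lay in the same direction as class II within both pairs. The free RNA itself held 12991, 10323, 9272 and 8963 class II CPM in the same order of libraries. The part of free RNA in the EC ratios was not tested.

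EC-like cells with and without Ackr1, the chemokine receptor of venules, differed little in the class II sum. The class II sum was 828 CPM in cells without an Ackr1 UMI and 838 in cells with 2 or more in mIgG1, 584 and 668 in Ang2 Ab, 217 and 204 in Ctrl, and 300.4 and 382 in EC-Ang2. The log2 ratio was 0.12 ± 0.19 (SD, n = 4 libraries), from -0.09 to 0.35. Cells with 2 or more Ackr1 UMIs were deeper, with a median of 7592 UMIs against 3692 in mIgG1. When each cell was thinned to 2000 UMIs and called positive from 1 Ackr1 UMI, the log2 ratios were 0.01, 0.16, 0.20 and 0.30 in the same order of libraries. Ctrl thus turned from lower to higher and all 4 had one sign. Per 100 immune-only UMIs, cells with 2 or more Ackr1 UMIs had 90.4, 96.6, 75.0 and 115 class II UMIs, against 88.4, 102, 105 and 90.7 in the free RNA. The EC-Ang2 library was the only one of the 4 well above its free RNA. Cells with exactly 1 Ackr1 UMI, just outside the limit, had 85.2, 88.3, 76.3 and 53.1. Single members differed more in places. Cd74 in EC-Ang2 was at 232 CPM with 2 or more Ackr1 UMIs and 153 without (log2 ratio 0.61, interval 0.49 to 0.72). Its ratio was -0.04 to 0.21 in the other libraries. H2-DMb1 was at 0.60 in EC-Ang2 and 0.87 in Ctrl (interval 0.32 to 1.41), but at -0.03 in mIgG1 and 0.01 in Ang2 Ab. H2-Aa, H2-Ab1, H2-Eb1 and H2-DMa stayed under 1.5-fold. The immune-only sum was at -0.27 in EC-Ang2. A cluster of 101 cells in EC-Ang2, described below, held 2033 class II UMIs. All EC-like cells there with 2 or more Ackr1 UMIs held 4114.

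One cluster of 231 EC-like cells stood apart from the rest. It was led by Ubd, a ubiquitin-like modifier induced by interferon, and Selp, the selectin that slows leukocytes on venules, and it is singled out here after its values were seen. It held 61, 43, 26 and 101 cells in mIgG1, Ang2 Ab, Ctrl and EC-Ang2, with a class II sum of 1523, 1302, 204 and 1120.1 CPM, against 802, 591, 217 and 251 in all other EC-like cells. Per 100 immune-only UMIs that is 159.6, 141, 100 and 348, above the free RNA ratio beyond the counting interval in 3 of 4 libraries and not in Ctrl. In Ctrl the interval ran from 72.1 to 139, and the other clusters of at least 20 cells had 49.1 to 83.0. In Ang2 Ab 1 cell held 254 of the cluster's 659 class II UMIs, and whether the ratio stays above the free RNA without it was not tested.

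In the EC-Ang2 library the cluster differed from the other EC-like cells across the pathway. Cd74 was 5.81-fold higher (759 against 131 CPM), H2-DMb1 6.65-fold (47.4 against 7.12), H2-Eb1 3.70-fold, H2-Aa 3.24-fold and H2-DMa 3.03-fold. Ciita had 4 UMIs in these 101 cells and 1 in the other 2203. H2-Oa had 0 UMIs there, and the immune-only sum was not higher in EC-Ang2, at 0.885-fold. The immune-only sum of the cluster was 0.975-fold in mIgG1 and 0.682-fold in Ctrl, but 1.38-fold in Ang2 Ab (922 against 671 CPM). Its cells were also deep, with medians of 12301, 11429, 13625.5 and 16823 UMIs in mIgG1, Ang2 Ab, Ctrl and EC-Ang2. Without its highest cell, the cluster had 1397, 829, 184 and 999.8 class II CPM. Ackr1 itself was 3.33-fold higher. The cluster held 1378 Cd74 UMIs in EC-Ang2, where all EC-like cells with 2 or more Ackr1 UMIs held 2501. The differences by Ackr1 in that library may thus rest in large part on this cluster, and the Ackr1 ratios without it were not tested.

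**Figure D4:**
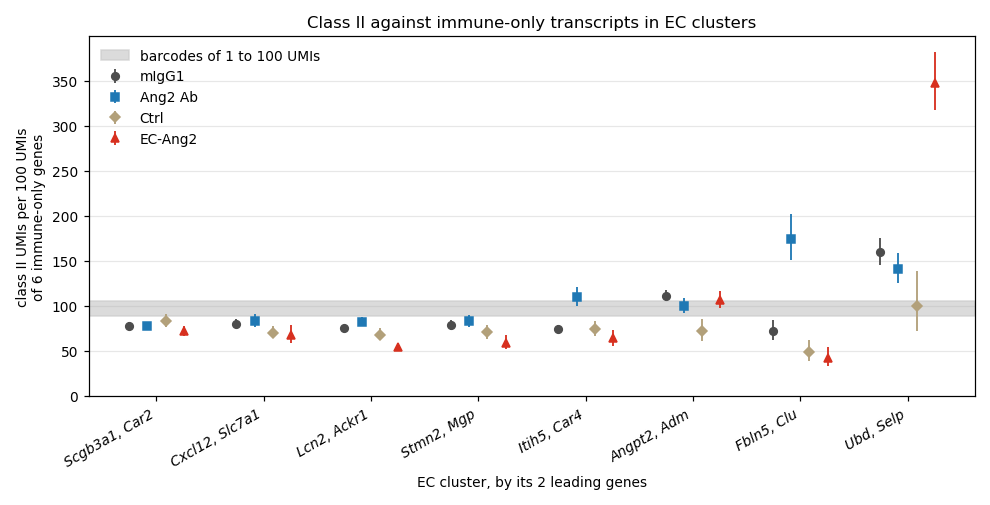
Class II UMIs per 100 UMIs of the 6 immune-only genes in each EC-like cluster with at least 20 cells in a library, named by its 2 leading genes, with exact 95% counting intervals; the grey band spans the free RNA of the 4 libraries. The Ubd cluster of EC-Ang2 stands at 348, and the high point of the Fbln5 cluster in Ang2 Ab rests on 1 cell with 345 class II UMIs.

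The other EC-like clusters stayed at or under 1.26 times the free RNA ratio, with 1 exception: the arterial cluster led by Fbln5 and Clu in Ang2 Ab, at 1.71 times, where 1 cell held 345 of 512 class II UMIs and the level was 515 in place of 1519 CPM without it. In its lowest library each of these other clusters stood below the free RNA ratio, at 0.466 to 0.761 times. In the cluster led by Angpt2 and Adm the counting interval lay above the free RNA in 2 libraries, mIgG1 and EC-Ang2. Over all EC-like cells the class II sum was 336 CPM in EC-Ang2 and 217 in Ctrl, a log2 ratio of 0.63. Without the Ubd cluster the ratio was 0.20, and without the highest other cell of each library as well it was 0.10, both under 1.5-fold. The ratio was also under 1.5-fold as a mean over cells (0.29), with doublets (0.53) or cycling cells (0.48) kept, without cells that had UMIs of 2 or more immune-only genes (0.24) and with equal weight for each cluster (0.57). In the antibody pair the ratio was -0.44 with and without the Ubd cluster.

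A list of 33 other genes of the pathway set the members beside their partners. One list held 6 surface molecules that engage T cells beside class II: the co-stimulatory ligands Cd80, Cd86 and Icosl, the receptor Cd40, and Cd274 and Pdcd1lg2, the ligands of the inhibitory receptor PD-1. All 6 were past the fold and lower in the macrophage-like cells of EC-Ang2, with a median log2 ratio of -1.09. Cd86 stood at 295 CPM in Ctrl and 151 in EC-Ang2, and Cd40 at 116 and 50.4. Of 8 genes between interferon-γ and Ciita, 3 were lower there: Irf1 (-1.14), Socs1 (-0.79) and Irf8 (-0.81). Ctsl (0.97) and Ctsd (1.11), proteases that cut ingested protein, were higher. Over all 33 genes, 10 were lower and 2 higher of 30 tested in these cells, where 700 of all 8297 genes tested were lower and 610 higher (15.8% in all).

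In other types some partners lay in the opposite direction from the members. In monocyte-like cells of the antibody pair 7 of 30 tested partners were higher in Ang2 Ab, namely Jak2 (0.79), Irf1 (0.73), Socs1 (1.36), Irf8 (0.59), Cd40 (0.93), Pdcd1lg2 (1.36) and Cd274 (0.71), while Ctsd (-0.69) and the class II sum were lower. Over all 7821 genes tested there, 495 were higher and 413 lower (11.6% in all). In microglia-like cells of the transgenic pair 11 of 28 tested partners were lower in EC-Ang2 and 2 higher, among them Ifi30 (0.74), while 7 members were higher, against 1861 lower and 501 higher of all 6828 genes tested. Irf1 stood at 305 CPM in Ctrl and 152 in EC-Ang2. Cd83, which keeps class II on the surface, was lower there too, at 1278 and 552 CPM. In EC-like cells Irf1 (0.76), Irf8 (0.64) and Cd274 (1.19) were higher in EC-Ang2.

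Of the subunits of RFX and NF-Y and the X2 box factor Creb1, 7 genes in all, 0 of the 6 or 7 tested were past the fold in monocyte-, macrophage- and EC-like cells in either pair. Of all genes tested there 6.19 to 15.8% were past it, and with so few genes 0 is near that share. Rfx5, a DNA-binding subunit of RFX, had 4.99 to 6.96 CPM in EC-like cells and 1.95 to 4.11 in macrophage-like cells. Among microglia-like cells, 1 of 6 tested was lower (Rfxank) and 1 higher (Creb1) in Ang2 Ab, against 10.1% of all genes past the fold. In EC-Ang2 3 of 5 tested were lower (Creb1, Nfya and Nfyb). Against that, 34.6% of all 6828 genes were past the fold there, 1861 of them lower. These 3 genes stood at only 12.3, 19.6 and 7.37 CPM in the 47 EC-Ang2 cells.

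The genes whose level was most like that of the class II sum were sought over 34 points, each a cell type in 1 library with at least 20 cells, among 11560 genes. The points share libraries, depth and free RNA, so the correlations are descriptions. Ifi30, a thiol reductase that unfolds proteins in the endosome for class II, came first among the other genes with a Pearson r of 0.95 on log2(CPM + 1). It was followed by Gm6377 (0.90), Shtn1 (0.89), Rp2 (0.86), Cd86 (0.85), Kynu (0.85), Napsa (0.85), Irf5 (0.84), Pkib (0.83) and Ifi205 (0.83). Of the members outside the sum, H2-DMa and H2-DMb1 were both at 0.90, H2-DMb2 at 0.80, Ciita at 0.78 and H2-Oa at 0.74. Ifi30 was nearly level between both DC types, at 1215 to 1449 CPM in Fscn1-low and 1179 to 1516 in Fscn1-high cells, where the class II sum was not.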

How the data were processed

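The deposited files are UMI counts per gene and barcode, which the authors made with Cell Ranger 2.1.1 on mm10 and analysed with Seurat 2.3.4, per the submitters' processing notes. The counts of the 4 libraries were used as deposited. The 9 members and all gene lists were chosen with earlier results of these data known. Barcodes of at least 2000 UMIs and at most 10% mitochondrial UMIs were kept. Doublets were scored per library with Scrublet in scanpy 1.11.5 and removed at an assumed 0.8% per 1000 barcodes, and cells with UMIs of at least 3 of 12 cycling genes were removed, which left 23699 cells. Seurat 5.3.0 in R 4.3.3 aligned the libraries by CCA and clustered them (2000 variable genes, 30 dimensions, resolution 1.2). The members and the other pathway genes were kept from the features. Doublets and cycling cells were still present in the alignment, the clustering and the naming, and were removed only before UMIs were summed. Clusters were named where at least 3 markers of a list were at least 3-fold enriched, and doublet-rich or mixed clusters were left out.

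UMIs were summed per type and library and given as CPM (counts-per-million). With 1 library per condition no test was run. Intervals are exact at 95% (Poisson for levels, conditional binomial for ratios, scipy 1.17.1). All 9 members were named, and the 10 genes most like the class II sum among genes of at least 200 UMIs. Of the other pathway genes that passed 1.5-fold with at least 50 UMIs only a part was named. The free RNA share of a leukocyte type was bounded from 5 EC genes, and that of ECs from the 6 immune-only genes. The scripts were tested on simulated data. Alternatives changed the alignment, the clustering features, the way cells were combined, the UMI minimum, doublets, cycling cells, free RNA, the depth at which Ackr1 was called, ECs with immune transcripts and the fold. Some genes of the lists are not reported here.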

Additional observations from a re-analysis of the deposited data

How the results depend on the processing

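The direction of the class II sum in macrophage-, microglia- and EC-like cells was kept in both pairs under every alternative that gave a value, and Fscn1-low DC-like cells stayed first for all 9 members wherever that type was formed. Sizes moved by more than the counting interval as follows, as log2 ratios. Without alignment, macrophage-like cells were at -0.26 in the antibody pair and -0.85 in the transgenic pair, and microglia-like cells at 0.80 in the transgenic pair. With the members among the candidate features, macrophage-like cells were at -0.22 and -0.95 and ECs at -0.50 in the antibody pair. As a mean over cells, macrophage-like cells were at -0.27 and -0.89, microglia-like cells at -1.23 and 1.83, and ECs at -0.56 and 0.29. From 4000 UMIs, macrophage-like cells were at -0.18 and -0.94, microglia-like cells at -0.96 in the antibody pair, and ECs at -0.36 and 0.86. With doublets kept, macrophage-like cells were at -0.89 in the transgenic pair, microglia-like cells at -0.94 and 1.14, and ECs at -0.60, which is past 1.5-fold, and 0.53. With cycling cells kept, macrophage-like cells were at -0.21 and -0.88, microglia-like cells at -0.96 and 0.95, and ECs at 0.48 in the transgenic pair. With free RNA subtracted, microglia-like cells were at 1.77 in the transgenic pair. Without ECs that had UMIs of 2 or more immune-only genes, ECs were at -0.53 and 0.24. Chosen after the data were seen were 3 more. Without cells that had UMIs of 2 or more monocyte genes, microglia-like cells were at -1.28 and 2.18. With equal cluster weights, macrophage-like cells were at -0.21 and -0.96, microglia-like cells at -1.26 and 1.67, and ECs at -0.19 and 0.57. Without the Ubd cluster ECs were at 0.20 in the transgenic pair, and without the highest other cell as well at -0.48 and 0.10. The cause of these moves was not tested.

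Of the 94 member comparisons with enough UMIs, 39 were past 1.5-fold and 16 past 2-fold, and the other alternatives gave 33 to 43. These pool both pairs and all 6 types. In the single comparisons 6.19 to 34.6% of all genes tested were past 1.5-fold, and no such share is given for 2-fold. Among single genes and the remaining sums, 161 values moved by more than their interval and 506 did not. Without alignment the DC-like cells formed 1 cluster, so that no value by DC type was had. With free RNA subtracted the class II sum of ECs lay between -96.2 and 10.7 CPM over the 4 libraries, so that no ratio was had. No paired analysis was possible because each condition is 1 library. Depth limits Ciita, with 17 UMIs in all ECs and 41 in all microglia-like cells, and H2-DMa and H2-DMb1 in Fscn1-high DC-like cells, with 208 and 70 UMIs.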

Other observations

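Plasmacytoid DC-like cells, 77 in all, held a class II sum of 18869 CPM in mIgG1, 16519 in Ang2 Ab, then 15434 in Ctrl and 7857 in EC-Ang2, where Ctrl and EC-Ang2 gave 6 and 9 cells. They had 12.0 to 36.4 H2-Oa UMIs per 100 H2-DMa UMIs, which overlaps the range of Fscn1-low DC-like cells.

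In granulocyte-like cells the class II sum was 5023 CPM in mIgG1, 3054 in Ang2 Ab, then 989 in Ctrl and 688 in EC-Ang2. In T cell-like cells it was 1760.4, 682, 1092 and 331. The levels of both types lay below the free RNA of their library.

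Single cells held a large share of the class II UMIs of some EC-like clusters. A cell of the cluster led by Fbln5 and Clu in Ang2 Ab had 345, a cell of the cluster led by Itih5 and Car4 in Ang2 Ab had 348, and a cell of the cluster led by Scgb3a1 and Car2 in EC-Ang2 had 319. Without them the levels of these 3 clusters were 515 in place of 1519, 513 in place of 792, and 196 in place of 275 CPM. In Ang2 Ab 1 cell of the Ubd cluster had 254, and the level there was 829 in place of 1302 CPM without it.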
